A study of Drosophila melanogaster with 3 samples.

Results

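The authors' pooled list of peaks and background for Ets97D in whole *Drosophila melanogaster* embryos holds many promoter regions that did not enter their reproducible peak set, and those regions are described here. The list includes background by design, so a region in it is not by itself a site of Ets97D. Each of the 3 samples was chromatin from embryos of both sexes, 0 to 24 h old, of the transgenic strain Delg-GFP, in which eGFP is joined to the C terminus of Ets97D. The fusion was precipitated with an antibody against GFP and the DNA was sequenced (ChIP-seq). The 3 samples are biological replicates of 1 group with no other condition, labelled as separate biosamples of a single transgenic line, and whole embryos pool the chromatin of all cell types and stages of that day. The labels do not give the promoter that drives the fusion or say whether untagged Ets97D was present.

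A member is a region of the authors' pooled list, derived from all 3 replicates, that is absent from their optimal set and has its summit within 500 bp of the start site (TSS) of a protein-coding transcript. The optimal set is the authors' set chosen by a test of reproducibility between replicates (IDR). By pooled signal it held the 5595 strongest regions of the list, and the strongest member had rank 5596. A member is thus a region below that cut in pooled signal, and not one shown to differ between replicates. Of 27625 pooled regions, 22030 were outside the optimal set and 5575 of these were members. Away from promoters lay the other 16455. The optimal set held 5595 peaks, of which 4118 were at promoters by the same distance and are called optimal promoter peaks. In all, 42.5% of the promoter regions in the pooled list were in the optimal set and the rest were members. The members were therefore selected on a measured value, the authors' pooled signal, and on the distance limit. Neither of these was tested, while placement inside the limit was, and a region is a unit of the list, not a replicate of the experiment.

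Ets97D, also called Delg, belongs to the ETS family of transcription factors and corresponds to the DNA-binding alpha chain of GABP (NRF-2) in mammals, a factor known for its role at genes of the mitochondrion and of growth. ETS proteins bind a GGAA core, in GABP most often within CCGGAAG. Fly promoters of widely expressed genes often carry other short elements, among them the DNA replication-related element (DRE) bound by Dref and the Motif 1 element bound by M1BP, while promoters of regulated genes more often carry an Initiator, or GAGA repeats bound by the GAGA factor Trl.

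Sequences under the strongest members show the words on which the comparisons below turn. Each sequence is from the Release 6 (dm6) genome of NCBI RefSeq, written 5′ to 3′ on the strand of the nearest gene. It covers up to 50 bp either side of the summit and stops where an annotated untranslated region begins. The word stands in capitals, on whichever strand it was found, and GTGTGACC, CTTCCGG and CTCTCTC are the reverse complements of the words.

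The 3 strongest members with the DRE word TATCGATA follow.

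mei-P26, chrX:9163195-9163254 (plus strand): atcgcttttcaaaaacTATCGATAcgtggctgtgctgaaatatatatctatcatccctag

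CG12171, chr3R:5633547-5633626 (plus strand): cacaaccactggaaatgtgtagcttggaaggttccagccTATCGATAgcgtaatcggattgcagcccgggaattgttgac

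AMPKalpha, chrX:1375431-1375531 (plus strand): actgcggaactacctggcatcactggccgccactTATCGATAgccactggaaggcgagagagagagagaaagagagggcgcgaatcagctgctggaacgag

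The Motif 1 word GGTCACAC was present under the next 3, the strongest with that word whose window could be shown.

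CG3566, chrX:6276725-6276803 (minus strand): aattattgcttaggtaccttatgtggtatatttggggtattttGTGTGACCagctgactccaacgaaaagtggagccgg

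Mettl3, chr3R:24032086-24032156 (plus strand): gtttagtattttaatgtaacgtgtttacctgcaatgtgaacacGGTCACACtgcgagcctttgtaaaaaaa

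CG17754, chrX:9250319-9250419 (plus strand): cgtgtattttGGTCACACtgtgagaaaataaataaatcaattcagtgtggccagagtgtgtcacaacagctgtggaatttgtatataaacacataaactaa

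The ETS word CCGGAAG was present under 36 members, and the strongest that could be shown lie downstream of the start site. Members with the word that are not shown include the strongest, at raskol with its summit at -9 bp, and coro at -363 bp.

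qless, chr3R:31251833-31251894 (minus strand): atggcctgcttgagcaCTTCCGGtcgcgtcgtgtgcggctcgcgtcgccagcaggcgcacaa

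Arpc5, chr2L:2580371-2580471 (plus strand): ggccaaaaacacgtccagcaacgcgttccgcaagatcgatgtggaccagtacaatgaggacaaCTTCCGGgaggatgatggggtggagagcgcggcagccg

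CG6340, chrX:15482527-15482627 (plus strand): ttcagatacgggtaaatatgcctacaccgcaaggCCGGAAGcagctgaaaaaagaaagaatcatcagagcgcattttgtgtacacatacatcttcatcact

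The GAGA word GAGAGAG was present under the last pair, both just upstream of a start site.

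CG42240, chrX:6330743-6330841 (plus strand): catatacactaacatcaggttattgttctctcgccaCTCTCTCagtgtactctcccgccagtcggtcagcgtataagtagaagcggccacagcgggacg

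noc, chr2L:14490790-14490858 (plus strand): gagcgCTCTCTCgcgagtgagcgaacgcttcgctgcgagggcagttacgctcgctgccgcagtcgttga

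Of these genes, mei-P26 encodes a TRIM-NHL regulator of germ cell differentiation, AMPKalpha the catalytic subunit of the energy sensor AMP-activated kinase, and Mettl3 the catalytic subunit of the m6A RNA methyltransferase. Arpc5 is a subunit of the actin-nucleating Arp2/3 complex, qless an enzyme of coenzyme Q synthesis, and noc a zinc finger protein. The 3 DRE members had summits at -10, -30 and -55 bp from their start sites (negative positions are upstream). The 3 ETS members had theirs at 291, 129 and 203 bp. The summits of the Mettl3, Arpc5, CG6340 and CG42240 members were 201, 230, 202 and 199 bp from an optimal summit, a spacing taken up next.

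Members fell into a larger class that stood alone and a smaller one beside an optimal peak. An optimal summit lay within 500 bp of the summit of 1075 members, called flanking, and of none of the other 4500, called solitary. Of the flanking members, 951 had it at 199 to 230 bp, and no member had one closer than 199 bp. The smallest distance between any 2 summits was also 199 bp in the pooled list and in each of the 3 replicate lists. Among the 16455 regions away from promoters, 314 had an optimal summit at 230 bp or less.

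**Figure D1:**
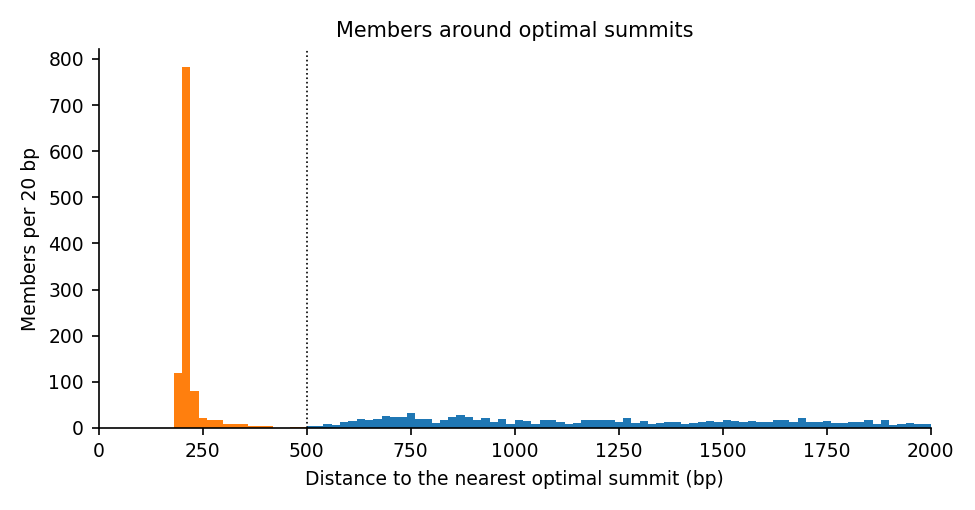
Distance from each member's summit to the nearest optimal summit, in bins of 20 bp up to 2000 bp, as numbers of members; the dotted line at 500 bp divides flanking (orange) from solitary members (blue). Nearly all flanking members are in the narrow column that begins at 199 bp, and solitary members are spread thinly beyond the line.

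Flanking members lay beside 1063 different optimal peaks, 19% of the optimal set, and those neighbours had a median signal of 158. The signal of a flanking member was 26.9% of its neighbour's in the median (quartiles 17.8 and 39.8%). The summit of 532 flanking members (49.5%) was downstream of the nearest start site. Their positions had the highest bin of 25 bp at 150 to 175 bp downstream, with 84 members. Around the start site the bins from -25 to 50 bp held 60, 61 and 61, and farther upstream than these the highest bin was at -250 to -225 bp, with 58. The highest bin of optimal promoter peaks was at -50 to -25 bp. The gene of Ets97D itself (FBgn0004510) had the same arrangement inside the optimal set: a peak with a signal of 303 had its summit at -38 bp, and a weaker one of 90.8, just above the threshold, at -237 bp. No member lay at that gene. For a flanking member, a replicate region within 150 bp can belong to the neighbour, so replicate values of single genes below are those of solitary members.

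**Figure D2:**
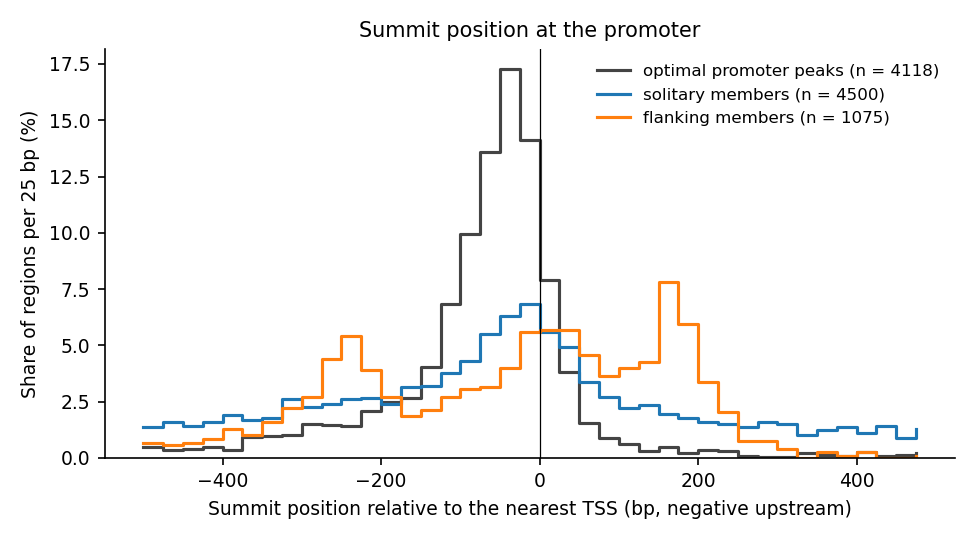
Summit position relative to the nearest TSS in bins of 25 bp, as the share of each class, for 4118 optimal promoter peaks, 4500 solitary members and 1075 flanking members. Optimal peaks form 1 narrow mode at -50 to -25 bp, solitary members a low broad one around the start site, and flanking members a mode on each side of it and one near it.

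Signals of the members ran from 22.3 to 89.1, with a median of 39.2 and quartiles of 28.7 and 56.9. Optimal promoter peaks began at 89.2 and had a median of 173. The threshold crossed a continuous range: the 5 highest members had signals of 89.02 to 89.14 and the 5 lowest optimal promoter peaks of 89.16 to 89.25. At the distance limit, the 5 members nearest to it lay at 499 and 500 bp with signals of 42.0 to 61.6, and the 5 regions just beyond it at 501 bp with signals of 22.8 to 38.6. The authors' own q value was below 0.05 for 1741 members (31.2%) and for 12.7% of the regions away from promoters. Bases within 500 bp of a coding TSS make up 11.2% of the 7 chromosome arms, and members made up 25.3% of the regions below the threshold. With those regions split into 5 equal bands by signal, the share was 44.1% in the strongest, 28.5% in the next and 16.1% in the weakest, always above the share of the genome. Both signal and position were used to choose the members, so these values are a description.

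Members were found in the single replicates less often than optimal promoter peaks and more often than regions away from promoters. A region of the replicate's own list lay within 150 bp of the summit for 57.0% of members in replicate 1, 65.9% in replicate 2 and 70.2% in replicate 3. The mean was 64.4% ± 6.75 (SD, n = 3), against 98.6% ± 0.138 for optimal promoter peaks and 51.9% ± 4.90 for regions away from promoters. The order of the 3 classes was the same in every replicate. The replicate lists held 24391, 28843 and 29122 regions, and the share of members found was lowest in the shortest list and highest in the longest. All 3 lists held a region for 1607 members (28.8%), where 18.7% of all regions below the threshold had one. A further 2213 members were in 2 lists, 1517 in 1 and 238 in none. The pooled list was made from the same reads, so none of these shares is independent evidence for a region, and no test was made. When each replicate region counted only for its nearest pooled summit, 1452 members (26.0%) had one in all 3 lists. Of the members in the strongest band, 63.7% were in all 3 lists, and in the weakest band 1.27%.

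Few members were strong in single replicates, and the rule leads to this in part. Members were chosen below rank 5595 in a pooled signal made from the same reads, so the counts are a description. Among the 5595 strongest regions of each replicate, the number in the optimal set, 8.46% ± 1.67 of members (SD, n = 3) had a match. For 21 members this held in all 3 replicates (0.377%; 0.109% of all regions below the threshold), but 19 of them were flanking, and with each replicate region counted for its nearest pooled summit the number was 4, 2 of them flanking. The 2 solitary ones were between CG9945 and Hil, which encodes a transglutaminase-like protein, and between CG1750 and spn-F, a gene of oocyte patterning. To compare replicates, a signal was divided by that of the region at rank 5595 in the same list (29.2, 30.3 and 34.7 in replicates 1, 2 and 3), and this ratio is called the relative signal. At spn-F (FBgn0086362, chr3R:31254840-31255289, summit at -62 bp) it was 1.01, 1.03 and 1.13 in replicates 1, 2 and 3, a mean of 1.06 ± 0.0671 (SD, n = 3). All 3 values were just above 1, and the pooled signal of 83.5 was below the threshold. Because members were chosen by pooled signal, relative signals below 1 are in part a result of the rule, here and at the genes below.

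Between replicates the weak regions varied more than the strong ones. For the 1250 solitary members found in all 3 lists, the median relative signal was 0.657, 0.669 and 0.629 in replicates 1, 2 and 3. The coefficient of variation over the 3 replicates had a median of 28.5% (quartiles 17.9 and 39.3%), and the highest value was 1.75 times the lowest in the median. For the 3963 optimal promoter peaks found in all 3 lists, the median coefficient was 17.6% (quartiles 10.8 and 26.8%). Both sets passed through the requirement of a region in every list, so the values describe these regions and not all members. Single members were ordered differently by the 3 replicates, as the genes that follow show.

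The strongest members that were in all 3 lists and whose genes had no optimal summit within 500 bp of a TSS were at CG34038, cv and PGAP1, boca and Vps13, MetRS and CG15084, Idh, mon2 and CG8673, CG5921, CG15107 and Topors, Agpat3 and RAF2, and CG9727. Their pooled signals lay between 88.8 and 89.1. PGAP1 (FBgn0029789, chrX:5689457-5689906) encodes an enzyme that matures glycosylphosphatidylinositol anchors, and its relative signals were 1.05, 0.965 and 1.26 in replicates 1, 2 and 3. At Idh (FBgn0001248, chr3L:8360870-8361319, summit at -189 bp), the NADP-dependent isocitrate dehydrogenase, they were 0.628, 1.02 and 1.18 in replicates 1, 2 and 3. Replicate 1 was the lowest of the 3 at Idh and the highest at Vps13, a lipid transfer protein, with 1.12, 0.756 and 0.716 in replicates 1, 2 and 3. At Agpat3, an acyltransferase of phospholipid synthesis, the 3 values were close together, 0.989, 0.932 and 1.12 in replicates 1, 2 and 3. Ranked by the worst of their 3 replicate ranks, the 10 leading members were at CG9945 and Hil, CG1750 and spn-F, cv and PGAP1, not and bora, CG17266 and Rpp25, Agpat3 and RAF2, CG5262, CG7920, AP-1-2beta and Lamtor1. Among these, bora encodes an activator of Aurora A kinase, with 1.09, 0.962 and 1.12 in replicates 1, 2 and 3. Lamtor1, a subunit of the Ragulator complex that recruits TOR signalling to lysosomes, had 0.978, 1.17 and 0.893 in replicates 1, 2 and 3. Only CG7920 was below 1 in each replicate, 0.926, 0.907 and 0.947 in replicates 1, 2 and 3, with the smallest spread of the 10, 0.927 ± 0.0202 (SD, n = 3).

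Inside the 500 bp limit, which the rule did not divide further, members were placed differently from optimal promoter peaks. Summits lay upstream of the closest TSS in 57.5% of members and 82.4% of optimal promoter peaks (odds ratio 0.289, adjusted exact p = 3.9e-155). Summits within 100 bp of a TSS made up 38.8% against 69.2% (odds ratio 0.283, adjusted exact p = 3.65e-195). Start sites on both strands within 500 bp were present at 16.2% against 39.1% (odds ratio 0.3, adjusted exact p = 8.64e-143). This measure includes divergent gene pairs but does not require that the start sites point apart. These p-values come from Fisher's exact test, two-sided, with Benjamini-Hochberg adjustment over the 3 measures, and they compare regions, not replicates. Summits were at least 199 bp apart, so a flanking member could not lie at its optimal neighbour's place. For solitary members alone, themselves chosen by distance to an optimal summit, the odds ratios were 0.31, 0.292 and 0.188 in the same order. When the classes were made anew from each replicate's own list, with its 5595 strongest regions in place of the optimal set, the upstream share was 55.6% ± 1.98 below that rank and 80.6% ± 1.27 within it (SD, n = 3). The share near a TSS was 36.7% ± 1.85 against 67.5% ± 1.36, and the share with both strands 16.4% ± 0.672 against 39.5% ± 0.929. In every one of the 3 measures the 3 replicates of one class lay apart from those of the other.

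The split into solitary and flanking members was itself made by distance to an optimal summit, so their placement is given as a description. By definition flanking members lay beside an optimal peak, and solitary members had none within 500 bp. Start sites on both strands were present at 10.8% of solitary and 38.8% of flanking members, the latter near the 39.1% of optimal promoter peaks. The upstream share was 59.2% and 50.4%, and the share within 100 bp of a TSS 39.6% and 35.5%. Among solitary members position moved with signal. In the strongest band 68.7% were upstream and 53.9% within 100 bp of a TSS, and in the weakest band 51.5% and 25.04%.

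The DRE, Motif 1 and CGATA words were rarer under members than under optimal promoter peaks, and more frequent than under regions away from promoters. A panel of 12 words was searched for, on either strand, in the 101 bases centred on the summit. TATCGATA, the DRE, was present under 147 members (2.64%, Wilson 95% interval 2.25 to 3.09%), under 9.91% of optimal promoter peaks and under 0.304% of the other regions. For the first comparison the odds ratio was 0.246 (adjusted exact p = 1.32e-51) and for the second 8.89 (adjusted exact p = 7.17e-47), both by Fisher's exact test as above and adjusted over the panel of words. The second comparison is between regions on either side of the 500 bp limit, which the rule set. The DRE and Motif 1 are promoter elements, so a higher share at promoters is not a trait particular to members. The same limit holds for every word set against the other regions. GGTCACAC, Motif 1, was present under 2.24% of members, 7.72% of optimal promoter peaks and 0.219% of the other regions (odds ratios 0.274 and 10.5). The strongest DRE member, at mei-P26, had relative signals of 1.03, 0.845 and 0.983 in replicates 1, 2 and 3, and that of AMPKalpha 0.553, 1.06 and 1.02 in replicates 1, 2 and 3. In windows of the same length ending at the TSS, over all 19276 coding start sites, the DRE word was present in 5.20% and Motif 1 in 2.63%. CGATA, which is contained in the DRE word and is also the word recognised by BEAF-32, an insulator protein, was present under 18.3% of members, 37.7% of optimal promoter peaks and 11.1% of the other regions, and in 25.9% of the start site windows.

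Other words ran the opposite way between members and optimal promoter peaks. GAGAGAG was present under 2.92% of members and 1.24% of optimal promoter peaks (odds ratio 2.40, adjusted exact p = 3.07e-08), against 1.78% of regions away from promoters and 3.49% of the start site windows. The Initiator word TCAGTT was present under 7.89% of members and 5.56% of optimal promoter peaks (odds ratio 1.46, adjusted exact p = 1.58e-05), against 5.68% and 9.09% in the same order. The start site windows end at the TSS, so a word that spans the TSS is not counted in them. The 9.09% is therefore no baseline for an Initiator at the start site. CAGCTG, an E-box found in fly core promoters, was lower under members, 7.14% against 9.08%, with 7.63% of the start site windows (odds ratio 0.770, adjusted exact p = 0.00109). That call did not hold in the members above the median signal, where the odds ratio was 0.913 (adjusted exact p = 0.468). Nor did it hold among regions found in both other replicate lists, with each replicate set aside in turn (odds ratios 0.915 to 0.968). That setting drops regions missing from either list and leaves the pooled signal and the classes as they are. Over replicates the DRE share was 2.53% ± 0.399 in promoter regions below rank 5595 and 9.36% ± 0.218 within it (SD, n = 3). The corresponding shares of GAGAGAG were 2.74% ± 0.226 and 1.28% ± 0.158, and those of TCAGTT 7.65% ± 0.458 and 5.28% ± 0.376. For each of these 3 words the replicate values of the 2 classes did not overlap. The same held for CGATA, GGTCACAC and CAGCTG, the last with 6.34 to 6.92% below rank 5595 and 8.49 to 9.56% within it. It also held for the AP-1 word TGACTCA, which did not pass the test on the pooled list, and not for the other words of the panel.

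No difference in the ETS words between members and optimal promoter peaks passed the test. CCGGAAG was present under 36 members (0.646%, Wilson 95% interval 0.467 to 0.893%) and 0.801% of optimal promoter peaks (odds ratio 0.805, adjusted exact p = 0.524). With words sought within 100 bp of the summit the odds ratio was 1.12 (adjusted exact p = 0.643). In regions away from promoters the share was higher, 0.997% (odds ratio 0.646, adjusted exact p = 0.0301), and with a window of 25 bp that call was lost (odds ratio 0.703, adjusted exact p = 0.204). Start site windows held it in 0.332%. Of the 3 strongest members with the word, raskol, a Ras GTPase-activating protein, had its summit at -9 bp and relative signals of 0.894, 0.995 and 0.805 in replicates 1, 2 and 3. At qless they were 0.889, 1.03 and 1.08 in replicates 1, 2 and 3. The member of coro, an actin-binding coronin, was a flanking one. The core CCGGAA, which is contained in it, was present under 3.41% of members, 3.62% of optimal promoter peaks and 3.99% of the other regions, and in 2.41% of the start site windows. The TATA box word TATAAA, present under 13.6% of members and in 18.2% of the start site windows, passed neither test over all members. Nor did the word of the early activator Zelda, CAGGTAG (0.413 and 0.664%), that of the stress-responsive AP-1 proteins, TGACTCA (0.753 and 0.851%), or the E-box CACGTG (1.36 and 1.05%). Against optimal promoter peaks 6 of the 12 words passed, 2 higher and 4 lower, and against the other regions 7 passed, 6 higher and 1 lower. Between flanking and solitary members none of the 12 passed Fisher's exact test after adjustment, and TCAGTT alone had an unadjusted p below 0.05 (6.33 and 8.27%, exact p = 0.0375). A match is a word in a window and not a bound site.

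Since fewer summits of members lay close to a start site, the words were also compared within 2 zones of distance from it. This choice was made after the shares were known, and placement inside each zone was not matched. Within 100 bp of a TSS the DRE word was present under 5.92% of 2163 members and 13.2% of 2848 optimal promoter peaks (odds ratio 0.415, adjusted exact p = 3.66e-17), and Motif 1 under 5.18% and 10.1% (odds ratio 0.484). Over 100 bp from a TSS the DRE shares were 0.557% and 2.60% (odds ratio 0.210). GAGAGAG and TCAGTT were more frequent under members within 100 bp of a TSS, at 3.05 against 0.878% (odds ratio 3.55, adjusted exact p = 2.99e-08) and 11.2 against 5.62% (odds ratio 2.13, adjusted exact p = 2.57e-12). Over 100 bp from it neither passed, with odds ratios of 1.40 (adjusted exact p = 0.3) and 1.07 (adjusted exact p = 0.723). TATAAA passed in both zones with opposite signs: within 100 bp of a TSS it was present under 12.9% of members and 10.4% of optimal promoter peaks (odds ratio 1.27, adjusted exact p = 0.0165), and farther out under 14.1% and 18.6% (odds ratio 0.721, adjusted exact p = 0.00065). CAGCTG passed in neither zone and its odds ratio was above 1, 1.21, in the outer one.

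Within the members the element words also moved with signal. Of solitary members in the strongest band, 80 of 1478 (5.41%, Wilson 95% interval 4.37 to 6.69%) held the DRE word, against 1.93, 1.34, 1.35 and 0.803% in the next 4 bands. Motif 1 went from 4.60% to 0.482%. Among optimal promoter peaks, split into 5 bands of their own, the weakest, with signals of 89.2 to 115, still held the DRE word in 8.63% (6.90 to 10.7%). GAGAGAG stood at 3.11% in the strongest and 4.17% in the weakest band of members, with overlapping intervals. The weakest optimal band held it in 2.19% (1.39 to 3.43%), which overlaps the interval of the strongest members (2.34 to 4.13%). TCAGTT was present under 7.90% of that optimal band and 7.44% of the strongest band of members. For GAGAGAG and TCAGTT the bands on either side of the threshold were thus not separated. The ETS word lay between 0.406 and 1.21% in the 5 bands, which rest on 3 to 9 members each, too few for an order.

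**Figure D3:**
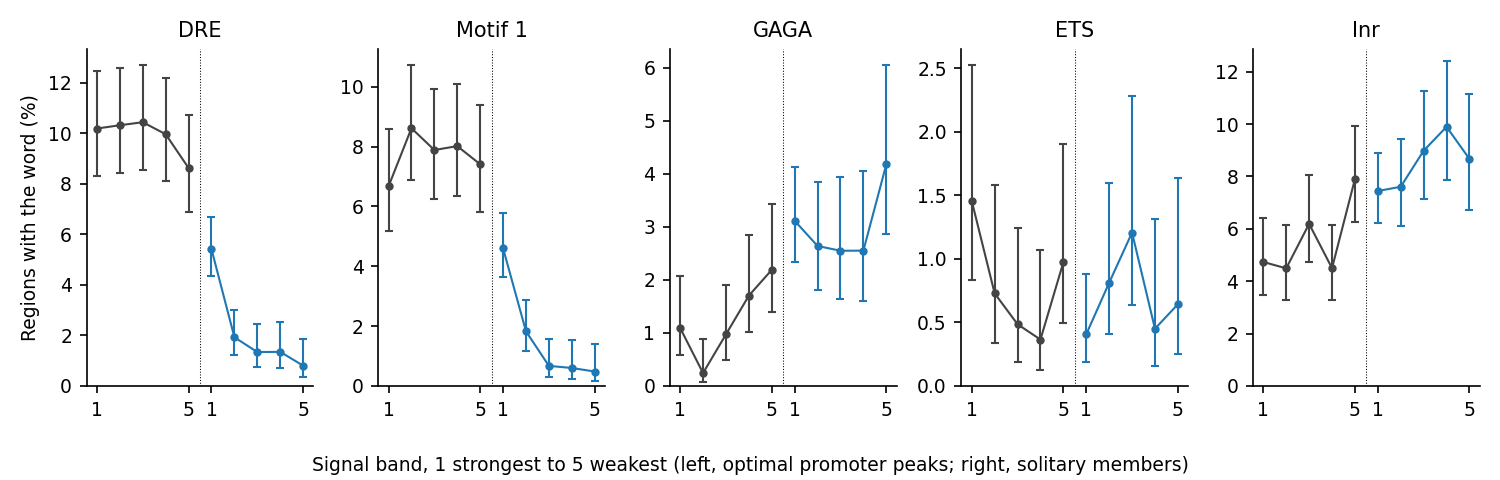
Share of regions with each word within 50 bp of the summit, by band of signal, for optimal promoter peaks (grey, left of the dotted line) and solitary members (blue, right); bars are Wilson 95% intervals. Bands run from the strongest (1) to the weakest (5), those of members being bands of all regions below the threshold. DRE and Motif 1 fall across the members. GAGA is higher in all 5 member bands than in any optimal band, but the interval of the weakest optimal band overlaps those of the members. Inr in the weakest optimal band is within the range of the members, and the ETS word is rare throughout.

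Members extend the set of genes with a pooled region at a start site. Of 13968 protein-coding genes, 5097 (36.5%) had an optimal summit within 500 bp of a TSS, a further 3143 (22.5%) had only members, and 5728 had no pooled region. In all, 5024 genes had a member, and 1881 of these also had an optimal peak. The genes with only a member were 35.4% of the 8871 genes without an optimal summit. Most of them, 2241, had 1 member and 762 had 2. Most members, 4561 (81.8%), had 1 gene within 500 bp, and where there were several the summit counted for each. With only the members above the median signal, 1836 genes had only a member. Counting only members and optimal peaks that had a region of both other replicates, the number was 1772 without replicate 1, 1593 without replicate 2 and 1560 without replicate 3. The same requirement is applied to the gene lists at the end of each paragraph on them. A named gene need not be the nearest to its summit, and the gene whose TSS is nearer is then given in brackets. The gene lists below are described by counts beside the 35.4% of all genes, with no test. Lists were made by gene symbol, and where each gene is expressed was not examined.

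Several lists of widely used genes had a member at most of the genes that lacked an optimal peak. The mitochondrial ribosome, which translates the subunits encoded by mitochondrial DNA, had 18 of 73 genes without an optimal summit and 16 of these (88.9%) had a member, 8 of them in all 3 replicate lists. The strongest was at mRpS28 (nearer CG5323; signal 87.3, summit at -31 bp), with relative signals of 0.926, 1.10 and 0.733 in replicates 1, 2 and 3. At mRpS22 (nearer CG5003) they were 1.14, 0.941 and 0.777 in replicates 1, 2 and 3, and at mRpL3 0.789, 1.08 and 0.868 in replicates 1, 2 and 3. None of these was above 1 in all 3 replicates. mRpL46 and mRpS35 had no pooled region. The mitochondrial ribosome list had 12, 11 and 9 genes with only a member without replicates 1, 2 and 3 in turn.

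Respiratory complex I, which passes electrons from NADH to ubiquinone, had 16 of 40 genes without an optimal summit and 9 of these had a member, 8 in all 3 lists. At ND-B16.6 the summit was at -1 bp and the relative signals were 1.14, 0.918 and 0.648 in replicates 1, 2 and 3. At ND-AGGG they were 1.21, 0.466 and 0.604 in replicates 1, 2 and 3, replicate 1 standing well above the others. ND-20L and ND-24L had no pooled region. In complexes II to V, 10 of 16 had a member, 3 in all 3 lists. At COX4, a subunit of cytochrome c oxidase, the relative signals were 0.371, 1.49 and 0.776 in replicates 1, 2 and 3, replicate 2 standing far above replicate 1. At SdhA, the flavoprotein of succinate dehydrogenase, they were 1.17, 0.507 and 0.967 in replicates 1, 2 and 3. The TCA cycle had 4 of 6, among them Idh and SdhA described above and Pdha, a subunit of pyruvate dehydrogenase, with 0.842 and 0.619 in replicates 1 and 2, with no region in replicate 3. In glycolysis 2 of 3 had one, Gapdh1 (nearer PolZ1) with 0.558 and 0.418 in replicates 1 and 3, with no region in replicate 2, and the hexokinase Hex-C with 0.420 in replicate 3 alone. The respiratory complex I list had 9, 8 and 8 genes with only a member without replicates 1, 2 and 3 in turn. The numbers were 6, 3 and 5 for the respiratory complexes II to V list, 2, 2 and 3 for the TCA cycle list and 0, 1 and 0 for the glycolysis list.

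Of 8 genes for upkeep of the mitochondrial genome and for protein import that lacked an optimal summit, 7 had a member. The member of Tim17b, a channel subunit of the inner membrane import machinery, had the widest range among the list genes named here that were in all 3 lists. Its relative signals were 1.60, 0.786 and 0.392 in replicates 1, 2 and 3, with a pooled signal of 85.6 and the summit at -11 bp. At TFAM, which packages mitochondrial DNA, the pooled signal was 45.8, the summit at -7 bp and the relative signals 0.342, 0.551 and 0.609 in replicates 1, 2 and 3. All 3 values of TFAM were well below 1. Its partner in mitochondrial transcription, mtTFB2 (nearer CG11722), had 0.467 and 0.534 in replicates 1 and 2, with no region in replicate 3. Tim13, a small chaperone of the space between the membranes, had no pooled region. The mitochondrial genome upkeep and import list had 4, 3 and 4 genes with only a member without replicates 1, 2 and 3 in turn.

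Other lists left no gene without a region. All 7 spliceosome genes without an optimal summit had a member, as did all 8 of DNA replication and all 6 of the promoter element and insulator proteins. Among spliceosome genes U2af38, which recognises the 3′ splice site, shared its member (signal 88.3) with Stip1, a co-chaperone, whose start site is nearer; given to the nearest TSS only, 4 spliceosome genes had just a member. Prp31 (nearer Msh6), of the U4/U6 particle, had 1.03, 1.31 and 0.725 in replicates 1, 2 and 3. In DNA replication, the clamp loader subunit RfC4 had 0.612, 0.890 and 1.09 in replicates 1, 2 and 3 and Orc6, of the origin recognition complex, 0.509, 1.44 and 0.694 in replicates 1, 2 and 3. At RPA2, of the single-strand binding complex, they were 1.13, 1.07 and 0.316 in replicates 1, 2 and 3, replicate 3 lying far below the other 2. M1BP, the protein that binds Motif 1, had a member of signal 78.9 at -67 bp with 1.36 and 1.03 in replicates 1 and 3, with no region in replicate 2. The 1 summit shared by Ibf2 and, farther off, Ibf1, insulator binding factors, had 0.5995, 0.547 and 0.705 in replicates 1, 2 and 3, and su(Hw) (nearer Polr2I), a zinc finger insulator protein, 0.628, 0.656 and 0.792 in replicates 1, 2 and 3. The spliceosome list had 7, 7 and 6 genes with only a member without replicates 1, 2 and 3 in turn. The numbers were 6, 5 and 5 for the DNA replication list and 5, 6 and 5 for the promoter element and insulator proteins list.

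The transcription and translation machineries had members at nearly all genes that lacked an optimal peak. Of 12 RNA polymerase subunit genes without an optimal summit 11 had a member. Polr2A, the largest subunit of RNA polymerase II, had a signal of 85.4 at -117 bp and relative signals of 1.13, 1.16 and 0.708 in replicates 1, 2 and 3. Polr3B, the second largest subunit of RNA polymerase III, had 0.956, 0.725 and 0.962 in replicates 1, 2 and 3, and Polr1A, the largest of RNA polymerase I, 0.617, 0.572 and 0.865 in replicates 1, 2 and 3. TFIID and Mediator had 14 of 16, with MED31, MED24, MED14 and MED11 between 76.3 and 82.6 in pooled signal and summits from -48 to -25 bp. MED14, the scaffold of Mediator, had 0.530, 0.929 and 0.868 in replicates 1, 2 and 3. Aminoacyl-tRNA synthetases had 12 of 14; at MetRS (nearer CG15084) the relative signals were 1.13, 1.05 and 0.628 in replicates 1, 2 and 3 and at TyrRS (nearer CG33158) 0.371, 0.782 and 1.01 in replicates 1, 2 and 3. Cytosolic ribosomal proteins had 87 of 92 genes with an optimal summit, and of the other 5 only RpS10a had a member, with 0.771, 0.713 and 0.646 in replicates 1, 2 and 3, close together and all below 1. The RNA polymerase subunits list had 7, 7 and 9 genes with only a member without replicates 1, 2 and 3 in turn. The numbers were 9, 11 and 11 for the TFIID and Mediator list and 6, 8 and 7 for the aminoacyl-tRNA synthetases list.

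The proteasome and the cell cycle differed in how many genes were left with no region. Of 20 proteasome genes without an optimal summit, 6 had a member (30.0%), among them Rpt3R, Rpt6R and Prosbeta2R2 (nearer CG1116). The list counts every gene matched by symbol, so this share need not hold for each kind of subunit gene. Rpt3R had 0.548, 1.23 and 0.819 in replicates 1, 2 and 3, and Prosbeta6, a subunit of the core particle, 0.403 in replicate 3 alone. In the cell cycle list 6 of 7 had a member. pim (nearer Cand1), the fly securin, had 0.800, 1.22 and 0.828 in replicates 1, 2 and 3, and Bub1 (nearer Nin), a kinase of the spindle checkpoint, 0.476, 1.16 and 1.42 in replicates 1, 2 and 3. Replicate 1 was the lowest at both. The proteasome list had 3, 3 and 4 genes with only a member without replicates 1, 2 and 3 in turn, and the cell cycle list 2, 4 and 3.

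Embryonic patterning, neuronal and muscle genes with only a member had median signals of 40.2, 36.6 and 35.5, where all genes with only a member had 44.8 and spliceosome genes 75.9. Low medians were not confined to these lists. The median was 35.8 for mitochondrial genome upkeep and import, 39.0 for the proteasome and 42.1 for glycolysis, while receptor genes had 50.3. Of 39 embryonic patterning and Hox genes without an optimal summit, 12 (30.8%) had a member, 1 of them in all 3 lists. That was eve, a pair-rule gene, with a signal of 52.9 at -136 bp and 0.637, 0.407 and 0.555 in replicates 1, 2 and 3. The Hox gene Dfd had 1.16 and 0.645 in replicates 2 and 3, with no region in replicate 1. Another Hox gene, Abd-B, had 0.749 and 0.579 in replicates 1 and 3, with no region in replicate 2. At twi, the mesoderm determinant, they were 0.987 and 0.744 in replicates 1 and 2, with no region in replicate 3. Antp and Kr had no pooled region. In the signalling list 14 of 18 had a member, led by aop, an ETS repressor downstream of receptor tyrosine kinases (also called yan), with 1.45, 1.11 and 0.507 in replicates 1, 2 and 3. aos, a secreted inhibitor of the EGF receptor, had 1.14 and 0.821 in replicates 2 and 3, with no region in replicate 1, and Stat92E, the transcription factor of the JAK/STAT pathway, 0.872, 0.538 and 1.07 in replicates 1, 2 and 3. Of the Enhancer of split complex, targets of Notch, 6 of 9 had a member and none was in all 3 lists, with a median signal of 45.3. The embryonic patterning and Hox list had 2, 7 and 3 genes with only a member without replicates 1, 2 and 3 in turn. The numbers were 10, 9 and 7 for the Notch, Wnt, EGF and JAK/STAT signalling list and 3, 0 and 2 for the Enhancer of split complex list.

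Other ETS factor genes were among those with a member. Of 8 genes in the family 2 had an optimal summit, 4 only a member and 2, Ets65A and Ets96B, no pooled region. Beside aop, the members were at Ets21C with 0.525 and 0.750 in replicates 2 and 3, with no region in replicate 1, Ets98B with 0.650 and 0.545 in replicates 2 and 3, with no region in replicate 1 and Eip74EF with 0.758 in replicate 3 alone. Steroid response genes had 9 of 11, among them EcR, the ecdysone receptor, with 0.471, 0.557 and 0.715 in replicates 1, 2 and 3. ImpL2, an insulin-binding protein, had 0.445, 0.377 and 0.687 in replicates 1, 2 and 3. In both lists, every named gene that was in all 3 replicates except aop had relative signals below 1 throughout. The ETS factors list had 4, 2 and 1 genes with only a member without replicates 1, 2 and 3 in turn, and the steroid response list 6, 4 and 4.

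Muscle genes had a member at 9 of 18 and neuronal genes at 9 of 22 without an optimal summit, where 35.4% of all such genes had one. The neuronal share, 40.9%, is close to that of all genes, and with only the members above the median signal the muscle count was 3 and the neuronal count 4. Mhc, the muscle myosin heavy chain, had 0.489, 0.425 and 0.442 in replicates 1, 2 and 3, a mean of 0.452 ± 0.0328 (SD, n = 3) and a low, even signal. Tm2, a tropomyosin, had 0.660 and 0.424 in replicates 2 and 3, with no region in replicate 1. Syt1, the calcium sensor of synaptic vesicles, had 0.921, 0.671 and 0.620 in replicates 1, 2 and 3, and Shab, a potassium channel, 0.455, 0.860 and 0.665 in replicates 1, 2 and 3. Vmat, the vesicular monoamine transporter, had 0.420, 0.483 and 0.439 in replicates 1, 2 and 3. Germline and piRNA genes had 5 of 10: spn-E shares the summit of ND-23, the complex I gene, with 0.502, 1.02 and 0.691 in replicates 1, 2 and 3, and aub, a Piwi protein, had 0.690 and 0.919 in replicates 1 and 2, with no region in replicate 3; AGO3 and osk had none. Heat shock genes and chaperones had 5 of 15, among them Hsp22 with 0.488, 0.793 and 1.01 in replicates 1, 2 and 3 and Hsf, the heat shock factor, with 0.784 and 0.482 in replicates 1 and 3, with no region in replicate 2. The muscle list had 3, 3 and 3 genes with only a member without replicates 1, 2 and 3 in turn. The numbers were 4, 6 and 4 for the neuron list, 3, 2 and 2 for the germline and piRNA list and 2, 3 and 4 for the heat shock and chaperones list.

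Lists of genes used in few cells or late in life mostly had no region at all. Of 118 odorant and gustatory receptor genes without an optimal summit 8 (6.78%) had a member, of 92 cuticle genes 7 (7.61%), of 22 blood and fat body genes 2 (9.09%) and of 19 antimicrobial peptide genes 4 (21.1%). All 4 shares were below the 35.4% of all genes. Gr97a (nearer CG5521) had 0.844, 0.339 and 0.734 in replicates 1, 2 and 3, and the 1 summit shared by Lcp3 and, farther off, Lcp2, larval cuticle proteins, 0.576, 0.509 and 0.421 in replicates 1, 2 and 3. Adh, alcohol dehydrogenase, had 0.423, 0.740 and 0.286 in replicates 1, 2 and 3, and vkg, a chain of collagen IV, 0.411 in replicate 2 alone. The lists differ in size, and genes that lie close together, as cuticle and peptide genes do, can share 1 summit. The odorant and gustatory receptors list had 5, 4 and 5 genes with only a member without replicates 1, 2 and 3 in turn. The numbers were 2, 4 and 3 for the cuticle list, 1, 1 and 1 for the blood and fat body list and 3, 2 and 2 for the antimicrobial peptides list.

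**Figure D4:**
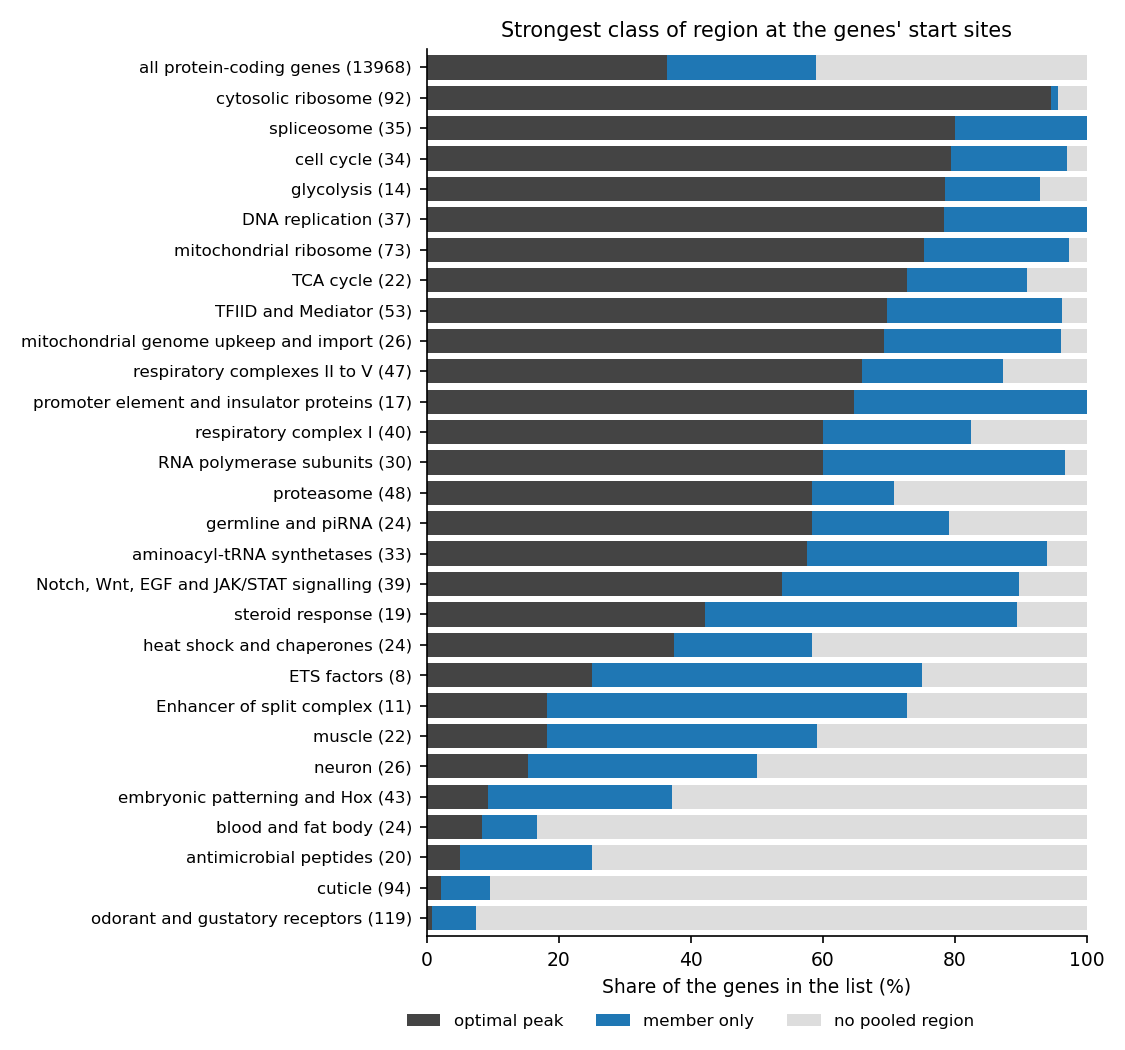
For all 13968 protein-coding genes and for each of 28 lists (number of genes in brackets), the share with an optimal summit within 500 bp of a TSS (dark), with only a member (blue) and with no pooled region (light). Lists are ordered by the dark share; the blue bars close most of the gap for RNA polymerase subunits and aminoacyl-tRNA synthetases and stay short for receptors and cuticle genes.

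**Figure D5:**
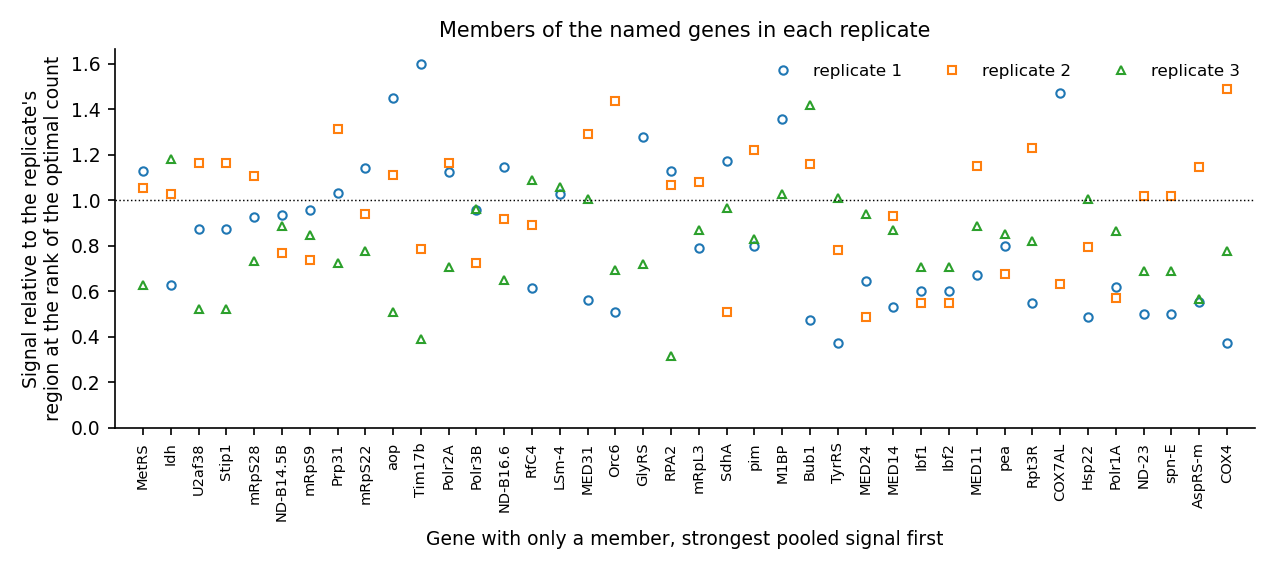
Relative signal in each replicate (signal divided by that of the region at rank 5595 of the same list, dotted line at 1) for the 40 genes of highest pooled signal among those named from the gene lists with only a member; a missing symbol means no region within 150 bp. Values run from 0.32 to 1.60, 29 genes have values on both sides of the line, and none has all 3 values at or above it. The genes were chosen below that rank in pooled signal, which in part sets this.

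Members lay on every arm but the Y. The X held 18.7% of members and 17.0% of start site positions, 3R 21.9% and 23.6%, and the fourth chromosome 66 members, 1.18% against 0.737%. The G and C content of the 101-base windows had a median of 41.6% under members, 40.6% under optimal promoter peaks and 41.6% under regions away from promoters.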

How the data were processed

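The 3 samples are ChIP-seq of Ets97D-eGFP with an antibody against GFP in whole embryos. Per the file descriptions deposited with the samples, a list of peaks plus background regions was made for every replicate from its alignment with a control, and for all replicates together such a list and an optimal set chosen by IDR. The deposited signal per region is the authors' value, with no stated scale. The −log10 q value per region is likewise the authors' and served only as a description. Which aligner, peak caller and IDR threshold were used is not given in the sources used here. Depth is unknown because regions come without read counts. Control libraries and dm3 lists were not used here.

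Regions were matched between the pooled and the optimal list by chromosome, start and summit. Genes were those of Ensembl release 115 and sequence that of NCBI RefSeq, both on the Release 6 assembly, and region ends on the arms lay within its lengths. Each TSS of a protein-coding transcript counted. Regions of 2 lists matched when summits lay within 150 bp. Word shares and positions were compared by two-sided Fisher's exact tests over regions, with Benjamini-Hochberg adjustment over the 12 words or the 3 measures and a threshold of 0.05; intervals are Wilson 95% intervals and cover counting error only. The 28 gene lists hold 1062 genes; 13 symbols were matched by synonym and 4 were not matched. The members, lists and words were chosen with earlier results of these data known.

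The rule for named genes took the 10 strongest members in all 3 lists and the 10 with the best worst rank, both with no optimal summit at their genes, the 5 members at each threshold, and 3 members for each of the DRE and ETS words. For each list it took up to 4 genes with only a member and up to 2 with no region. Printed sequences were the strongest with at least 60 bases outside annotated untranslated regions, and members on arm 2R were left out of them. Those for Motif 1 and GAGA were chosen after the shares were seen. The alternatives changed the word window, the promoter distance, the TSS set, the members, the match and the replicates; the split by distance to a TSS, the nearest-summit count and the form of leaving out a replicate in detection were chosen after seeing the data. The procedures were tested on simulated data. Software was Python 3.11.15 with SciPy 1.17.1, statsmodels 0.14.6, pandas 2.3.3, NumPy 2.4.6 and matplotlib 3.10.9.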

Additional observations from a re-analysis of the deposited data

How the results depend on the processing

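The word and position comparisons kept their number of calls within 1.5 times under every alternative run. Of 108 odds ratios against optimal promoter peaks, for the 6 words that passed, CCGGAAG and the 3 position measures, 98 kept their direction and their side of the threshold, 8 lost the call and 2 turned: CCGGAAG with words within 100 bp (odds ratio 1.12) and CAGCTG over 100 bp from a TSS (1.21), neither of which passed the test. The other 5 words are not in that tally; among them TATAAA gained a call both within 100 bp of a TSS (1.27) and farther out (0.721). The number of genes with only a member was 3143; it was 1836 with only the members above the median signal, and between 1560 and 1772 when each replicate was left out, since members without a region of both other replicates were then dropped. The mean share of members found in a replicate, 64.4%, was 81.4% for the members above the median signal, 44.2% with summits within 50 bp, 77.6% within 300 bp and 8.46% in the strongest regions of each list; it was 61.4 to 68.1% over 2 of the 3 replicates. The planned form, members with a region of both other replicates, gives 100 percent by construction and was replaced. Of 252 counts of genes per list, 177 stayed within 1.5 times. No paired analysis was possible because there is 1 group. Depth is unknown, the control was not analysed here, and the p-values take regions as units, so they carry no spread between embryo collections. Apart from what their construction fixes (fewer members, or another distance), the cause of these shifts was not tested.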
